A study of Mus musculus with 28 samples.

Results

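The genes described here are the 10 hepatocyte transporters of bile acids and organic anions, 10 of the 22187 genes measured. They are named by role, and earlier results of these data were known when the set was chosen. The uptake carriers of the sinusoidal membrane are Slc10a1, Slco1a1, Slco1a4 and Slco1b2. The exporters of the canalicular membrane, which faces the bile, are Abcb11, Abcb4 and Abcc2. The exporters of the basolateral membrane, which faces the blood, are Abcc3, Abcc4 and Slc51b. In 9 of the 10, every library held at least 1 CPM (reads of the gene per 1000000 reads of the library). The exception was Slc51b, which lay between 0 and 0.817 CPM in all 28 libraries and was therefore not tested in the main fits.

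RNA from 14 liver tumors and 14 samples of non-tumor liver of C57BL/6 mice was sequenced. All mice carried floxed alleles of Il17ra, which encodes a receptor subunit for interleukin-17 cytokines, and all were injected with the liver carcinogen diethylnitrosamine (DEN, 25 mg/kg) at 2 weeks of age. FF mice had the floxed gene alone, and dHEP mice also had an albumin-promoter Cre, which removes the receptor from hepatocytes and leaves it in other liver cells. For 18 weeks the mice received chow or an alcohol diet (labelled HFD_alcohol, although the protocol speaks of liquid ethanol). Each of the 4 groups on alcohol (FF or dHEP, tumor or non-tumor) held 4 libraries and each of the 4 groups on chow held 3. The labels give no sex. Each library name carries a number, taken here as that of the animal, so replicates were taken as separate animals. Tumor and non-tumor liver came from the same animal numbers in 11 mice; in FF mice on chow the numbers differed. Animals on alcohol and on chow have separate number ranges, so the diet and the animal cohort cannot be told apart.

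Bile acids are made from cholesterol in hepatocytes, secreted into bile, reabsorbed in the gut and taken up again from portal blood. Slc10a1 (Ntcp) takes up conjugated bile acids together with sodium, and the Slco carriers (Oatps) take up bile acids, bilirubin, hormones and drugs without sodium. At the canalicular membrane Abcb11 (Bsep) pumps bile salts, Abcb4 (Mdr2) delivers phosphatidylcholine and Abcc2 (Mrp2) pumps conjugated bilirubin and other conjugates, while Abcc3, Abcc4 and the Slc51a-Slc51b dimer return bile acids and conjugates to the blood.

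Slco1b2 (chr6:141629518-141686646), Slco1a4 (chr6:141805440-141856199) and Slco1a1 (chr6:141907282-141946962) lie in one cluster of Slco genes (GRCm38), and the other members lie on separate chromosomes. The promoters of 4 members are shown because their RNA levels behaved differently between tumor and non-tumor liver: Slc10a1 and Slco1b2 fell in every setting among the uptake carriers, Abcb11 fell in 3 of 4 settings, and Abcc4 was high in a few tumors. Each sequence is the 250 bases before the transcription start in RefSeq (GRCm38.p6), 5′ to 3′ on the gene's strand. Capitals mark matches, on either strand, to 2 motifs: AGGTCA, the hexamer bound by many nuclear receptors, and TGACNNNGC, the core of the antioxidant response element. The motifs do not overlap in these windows.
Slc10a1, chr12:80968706-80968955, minus strand: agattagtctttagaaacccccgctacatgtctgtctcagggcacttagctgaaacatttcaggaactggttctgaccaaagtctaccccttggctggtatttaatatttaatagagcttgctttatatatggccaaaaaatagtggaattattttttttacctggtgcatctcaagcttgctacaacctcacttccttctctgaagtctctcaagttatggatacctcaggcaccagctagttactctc
Slco1b2, chr6:141629268-141629517, plus strand: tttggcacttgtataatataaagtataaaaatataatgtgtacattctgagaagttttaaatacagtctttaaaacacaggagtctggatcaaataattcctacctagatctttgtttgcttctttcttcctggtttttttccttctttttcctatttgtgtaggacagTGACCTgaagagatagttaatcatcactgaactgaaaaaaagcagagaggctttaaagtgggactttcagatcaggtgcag
Abcb11, chr2:69342617-69342866, minus strand: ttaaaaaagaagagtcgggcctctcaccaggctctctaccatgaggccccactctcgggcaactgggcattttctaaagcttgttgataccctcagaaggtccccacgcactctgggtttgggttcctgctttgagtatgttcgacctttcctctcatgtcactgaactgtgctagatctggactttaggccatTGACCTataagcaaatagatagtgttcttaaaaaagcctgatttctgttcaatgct
Abcc4, chr14:118706220-118706469, minus strand: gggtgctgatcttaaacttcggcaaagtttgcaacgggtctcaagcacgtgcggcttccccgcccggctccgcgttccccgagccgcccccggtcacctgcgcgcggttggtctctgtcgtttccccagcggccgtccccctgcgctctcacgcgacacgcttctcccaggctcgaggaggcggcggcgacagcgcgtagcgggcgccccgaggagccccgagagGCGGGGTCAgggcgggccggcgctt
The window of Slco1b2 held an AGGTCA match whose first base lay 81 bases before the start. That of Abcb11 held an AGGTCA match at 56 bases, and that of Abcc4 a TGACNNNGC match at 25 bases. The window of Slc10a1 shown here held neither. Of the 32851 promoter windows of this length in the RefSeq table, 14% held AGGTCA and 10.2% TGACNNNGC. Among the 9 members with a window, 6 (Slc10a1, Slco1a1, Slco1b2, Abcb11, Abcc2 and Slc51b) had AGGTCA in at least 1 window. TGACNNNGC was found in 2 (Abcc2 and Abcc4). Members are counted by gene here, whereas the 14% and 10.2% are shares of single windows. Slc10a1 and Abcc4 each had 2 windows in the table. The other window of Slc10a1 (chr12:80968080-80968329), not shown, held an AGGTCA match at 87 bases. That of Abcc4 held a TGACNNNGC match at 23 bases. The motifs were picked after the windows had been seen, and a match describes letters only. Abcc3 had no entry.

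Libraries held between 9.57 M and 17.8 M reads (M, 1000000 reads) as estimated from the steps between low values, and 11864 to 13134 genes reached 1 CPM. Il17ra lay between 8.34 and 13.0 CPM in dHEP non-tumor liver and between 14.7 and 31.0 CPM in FF non-tumor liver, without overlap. The genotype test of Il17ra, which did not call it, is given below with the members. In tumors the ranges overlapped (8.38 to 29.4 CPM in dHEP, 20.8 to 33.9 in FF), the dHEP tumors dHEP-520 and dHEP-155 being at FF levels. The values count the whole gene, so they do not measure the deleted exons themselves. Leaving out tumor dHEP-155 ended the dHEP chow tumor calls of Slco1a4, Abcb11, Abcb4 and Abcc4 described below. Leaving out tumor dHEP-520 made a call of Abcb4 in dHEP alcohol. Several libraries stood apart on marker lists. Tumor dHEP-549 had a summed level of tumor markers (Afp, Gpc3, Igf2, Cd24a, Ly6d) of 10.2 CPM, against a median of 665 CPM in tumors and 13.1 CPM in non-tumor liver. The non-tumor library of FF-523 had 287 CPM of the same markers and that of FF-581 had 230. Non-tumor library FF-158 had the lowest sum of 12 male-biased liver genes in its tissue (1053 CPM, median 8489) and the highest sum of 13 female-biased genes (4763 CPM, median 512). Non-tumor library dHEP-155 did not stand apart on these lists, with 16.4 CPM of the tumor markers and 7827 CPM of the male-biased genes. One fit left out the 4 libraries and dHEP-155, 5 in all, because an earlier look at these data had set dHEP-155 apart too. A fit that left out the 4 alone was added after the results had been seen. Values of these fits are given wherever they end or make a call of a member. Those of the fit without the 5 also stand beside several of the diet and Slc10a1 results.

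Adjusted p below always means the Benjamini-Hochberg adjusted p of limma's moderated test over all genes tested. A log2 fold change is a difference of mean log2(CPM + 1) with its standard error, and a difference is called changed at an adjusted p below 0.05. The standard error rests on a spread shared by all groups of a fit, and the main tumor comparisons ignore the pairing within animals. Where a level is given per group, it is the CPM of each library in order of animal number. Where groups are said to be apart or not to overlap, the share of all genes for which this holds was not computed. In bulk tissue, fewer hepatocytes and less RNA per hepatocyte cannot be told apart. Of 8 hepatocyte markers 3 were higher and 1 lower in FF alcohol tumors, 2 and 2 in FF chow, 3 and 1 in dHEP alcohol and 1 and 2 in dHEP chow. The shares of all genes called in these settings are given below with the members. Alb, which encodes albumin, was higher by a log2 of 1.58 (FF) and 1.45 (dHEP) in alcohol tumors, and Cyp2e1, a pericentral P450, differed by -3.64, -3.16, -3.02 and -4.20 in the same order, while Hnf4a (adjusted p 0.19 to 0.81) and Ttr (0.2 to 0.68) were not called. The summed hepatocyte marker level was 86311 to 184083 CPM in tumors and 51489 to 91528 CPM in non-tumor liver. Alb alone held 67798 to 144457 CPM in tumors and 24253 to 64143 CPM in non-tumor liver. The median log2 fold change of the 8 markers was -0.32 (FF alcohol), -0.50 (FF chow), -0.23 (dHEP alcohol) and -0.28 (dHEP chow). The part of hepatocyte content in the results was not tested.

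Divided by exon length, the levels of the members could be ordered. In non-tumor liver Slco1b2 was highest (median 301 CPM per kb), then Slc10a1 (195), Abcb11 (142), Abcc2 (87.3), Slco1a1 (84.2), Abcc3 (81.5), Abcb4 (44.0), Slco1a4 (6.51), Abcc4 (1.36) and Slc51b (0.237). Neighbours in this order overlapped in range, except as follows. The range of Slco1b2 (265 to 400 CPM per kb) lay above that of Slc10a1 (141 to 248), that of Abcb11 (101 to 207) above that of Abcc2 (54.2 to 93.8), and that of Abcc3 (58.7 to 100.5) above that of Abcb4 (31.8 to 54.5). Slco1a4 (0.704 to 19.02) lay below Abcb4, and Slc51b (0 to 0.511) below Abcc4 (0.682 to 4.28). In tumors the order was different, with Abcc2 first (median 93.9 CPM per kb), then Abcb11 (63.2), Slco1b2 (44.4), Abcc3 (41.6), Slc10a1 (33.6), Abcb4 (23.6), Slco1a1 (5.46), Abcc4 (2.48), Slco1a4 (1.19) and Slc51b (0.491). All neighbours in that order overlapped in range. Exon length here is the union of annotated exons, which may exceed the transcript in use.

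Tumors were compared with non-tumor liver in 4 settings of genotype and diet. In tumors of FF mice on alcohol 5 of 9 tested members were lower and 0 higher, where 10.6% of all tested genes were lower and 13.9% higher (24.6% in either direction). In FF mice on chow 5 were lower and 0 higher (background 9.55% lower, 21.2% higher, 30.8% in all). In dHEP mice on alcohol 4 were lower and 0 higher (7.54% lower, 12.9% higher, 20.4% in all). In dHEP mice on chow 6 were lower and 1 higher (10.7% lower, 17.2% higher, 27.9% in all). The median log2 fold change of the 9 tested members was -1.12, -1.79, -0.72 and -1.38 in these 4 settings, and that of all genes tested 0.05, 0.16, 0.09 and 0.14. Without the 5 libraries the members called were 4, 5, 4 and 5 in the same order.

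The calls were also counted by role. With 4, 3 and 2 tested members per role, a difference between roles was not tested. Of the 4 uptake carriers, 3, 3, 3 and 4 were lower in the 4 settings, with median log2 fold changes of -2.95, -2.76, -1.98 and -3.47. Of the 3 canalicular exporters 2, 2, 0 and 2 were lower, with medians of -0.85, -1.04, -0.46 and -0.99. Of the 2 tested basolateral exporters, Abcc3 was lower in dHEP tumors on alcohol and Abcc4 was higher in dHEP tumors on chow.

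**Figure D1:**
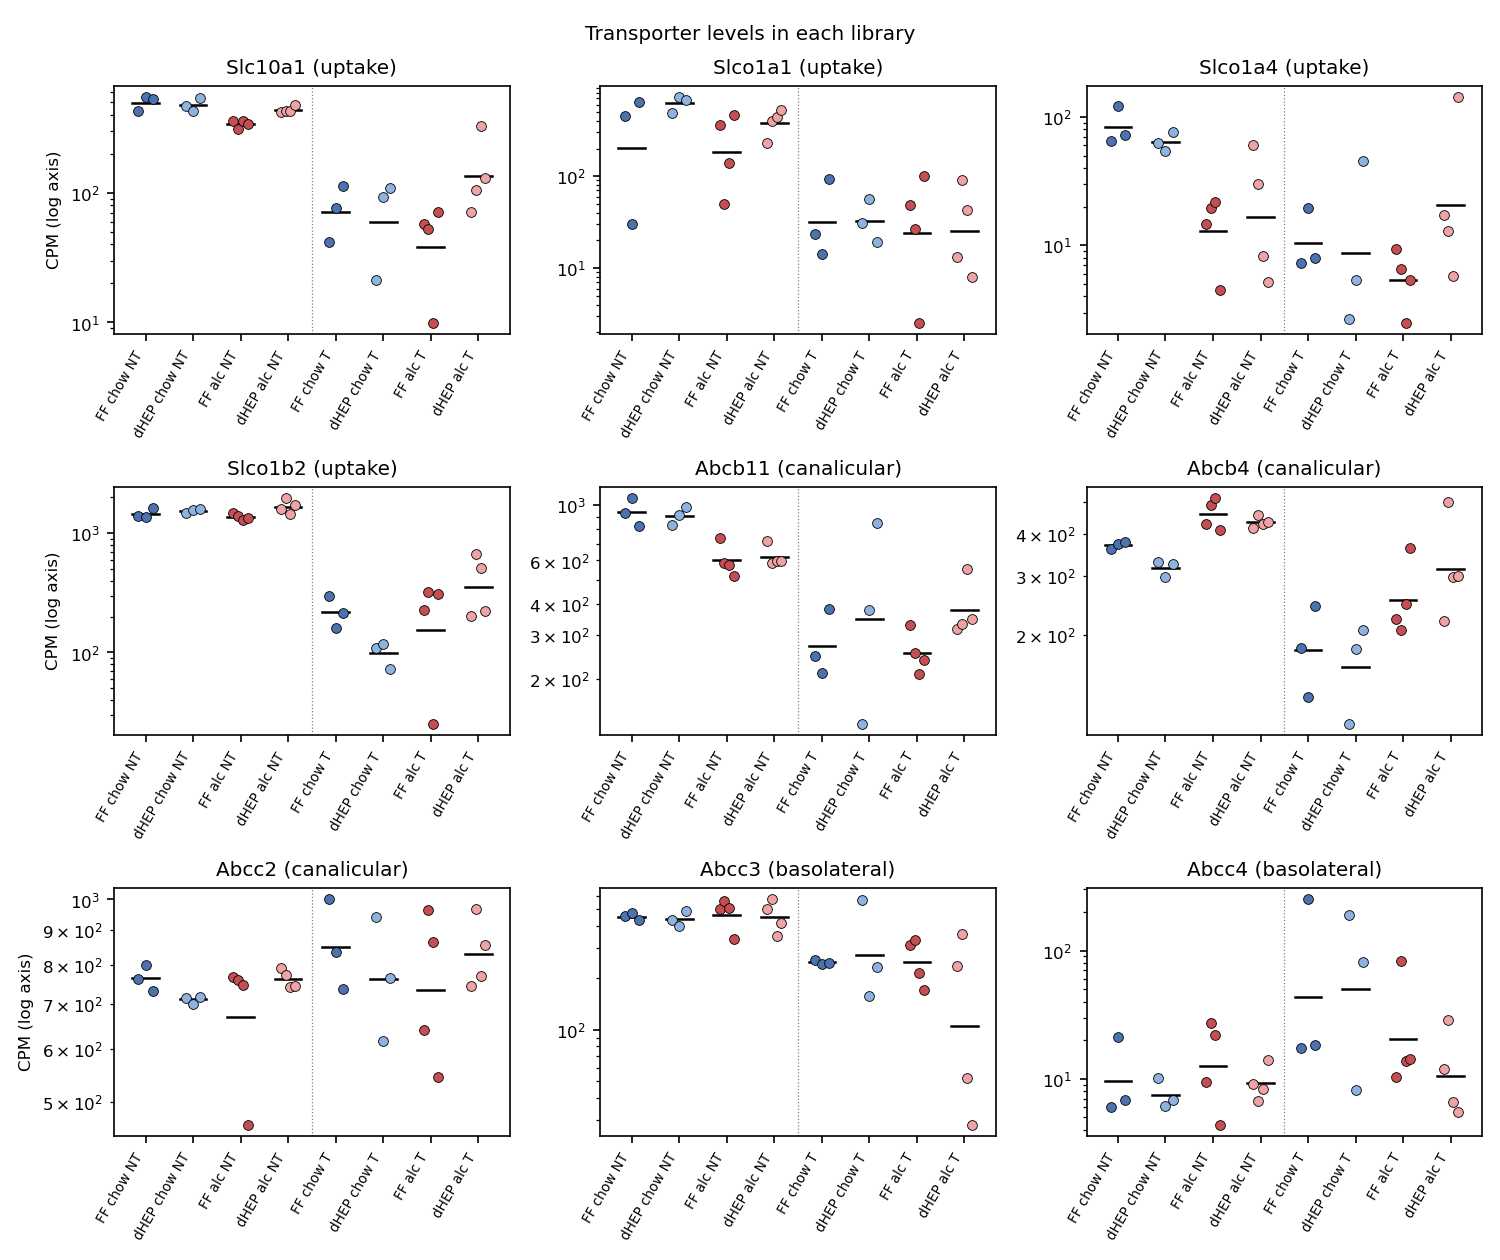
CPM of the 9 tested members in each of the 28 libraries (log axis, points), by genotype, diet and tissue (NT, non-tumor; T, tumor); bars are geometric group means. Slco1b2 is lower in every tumor than in every non-tumor library, while the tumor and non-tumor values of Abcc2 overlap in each genotype and diet.

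Slco1b2, the Oatp that is the mouse counterpart of the human liver OATP1B carriers, fell in tumors of all 4 settings. On alcohol, non-tumor liver held 1476, 1411, 1304 and 1342 CPM in FF mice and 1614, 1969.6, 1456 and 1716 CPM in dHEP mice. Alcohol tumors held 227, 324, 25.1 and 309.5 CPM in FF mice and 201, 667, 516 and 221 CPM in dHEP mice. Every tumor lay below every non-tumor library, and tumor FF-581 was the lowest by a wide margin. On chow, non-tumor liver held 1409, 1383 and 1622 CPM (FF) and 1487, 1578 and 1602 CPM (dHEP), and tumors 300.2, 161 and 216 CPM (FF) and 110.1, 118 and 73.1 CPM (dHEP). Again no tumor reached the non-tumor range. The 3 dHEP chow tumors lay below all chow tumors of FF mice, but this genotype difference was not called (-1.14 ± 0.78, adjusted p = 0.9996 by limma). In alcohol tumors the genotype difference had the other sign and was not called either (1.17 ± 0.68, adjusted p = 0.84 by limma). The log2 fold changes were -3.14 ± 0.51, adjusted p = 0.00011 in FF alcohol, -2.74 ± 0.59, adjusted p = 0.0014 in FF chow, -2.25 ± 0.51, adjusted p = 0.0032 in dHEP alcohol and -3.97 ± 0.59, adjusted p = 4.2e-05 in dHEP chow by limma. The call held in each fit that left out 1 library.

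Slc10a1, the sodium-dependent bile acid carrier, also fell in all 4 settings. On alcohol, non-tumor liver held 361, 309.8, 359 and 338 CPM in FF and 420.0, 429, 431 and 473 CPM in dHEP mice, against tumors with 57.7, 53.0, 9.92 and 71.4 CPM in FF and 71.6, 105, 326 and 131 CPM in dHEP. The groups compared did not overlap within a genotype, and the highest tumor was dHEP-549, the one with non-tumor levels of tumor markers. On chow, non-tumor liver held 424, 546 and 527 CPM in FF and 465, 428 and 542 CPM in dHEP mice, against tumors with 41.9, 76.1 and 114 CPM and 21.3, 92.3 and 109 CPM. These groups were far apart as well. The log2 fold changes were -3.10 ± 0.50, adjusted p = 9.5e-05 (FF alcohol), -2.78 ± 0.58, adjusted p = 0.001 (FF chow), -1.70 ± 0.50, adjusted p = 0.018 (dHEP alcohol) and -2.97 ± 0.58, adjusted p = 0.00061 (dHEP chow) by limma. In dHEP alcohol, leaving out tumor dHEP-518 ended the call (-1.40, adjusted p = 0.068), and leaving out the 5 libraries (non-tumor FF-523, FF-581, FF-158 and dHEP-155 and tumor dHEP-549) gave -2.13 with an adjusted p of 0.011. Without them the call also held in the other settings (-3.14, -2.71 and -2.98 in FF alcohol, FF chow and dHEP chow, adjusted p up to 0.0057).

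Slco1a1, an Oatp expressed more strongly in male than in female mouse liver, varied 24.1 times between the lowest and the highest non-tumor library. On alcohol, non-tumor liver held 359, 49.4, 140.4 and 459 CPM in FF and 229.5, 394, 442 and 525.67 CPM in dHEP mice, and tumors 49.2, 26.9, 2.54 and 99.3 CPM in FF and 13.2, 90.5, 42.3 and 7.95 CPM in dHEP. In dHEP mice the tissues were apart; in FF mice the non-tumor library FF-523 lay below the tumor FF-595. On chow, non-tumor liver held 446, 29.9 and 645 CPM in FF and 489.9, 721 and 676 CPM in dHEP mice, and tumors 23.4, 14.3 and 93.3 CPM in FF and 30.8, 56.9 and 19.1 CPM in dHEP. Here the low non-tumor value was that of FF-158, the library with low male-biased and high female-biased genes. The log2 fold changes were -3.84 ± 0.96, adjusted p = 0.0065 in dHEP alcohol and -4.22 ± 1.11, adjusted p = 0.0066 in dHEP chow, both called in each fit that left out 1 library. In FF alcohol the value was -2.80 ± 0.96, adjusted p = 0.035; the call was lost without tumor FF-523 or FF-581 or without non-tumor FF-503 or FF-595, with adjusted p up to 0.17. In FF chow the value was -2.66 ± 1.11, adjusted p = 0.071, not called with all libraries. Without FF-158 it was -4.04 with an adjusted p of 0.0085, and without tumor FF-169 -3.42 with an adjusted p of 0.041. It was also called without the 5 libraries set apart (-4.04, adjusted p = 0.0094) and without the 4 alone (-4.04, adjusted p = 0.0073).

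Slco1a4, an Oatp that also carries cardiac glycosides, was the least abundant uptake carrier. On chow, non-tumor liver held 64.5, 122 and 72.4 CPM in FF and 62.7, 53.8 and 76.4 CPM in dHEP mice, and tumors 7.24, 19.6 and 7.97 CPM in FF and 2.69, 5.36 and 45.1 CPM in dHEP. Each non-tumor library lay above each tumor. On alcohol, non-tumor liver held 14.5, 19.5, 21.6 and 4.52 CPM in FF and 60.1, 29.8, 8.34 and 5.17 CPM in dHEP mice, and tumors 9.34, 6.60, 2.49 and 5.38 CPM in FF and 17.2, 12.8, 5.81 and 142 CPM in dHEP. Here the tissues overlapped, and the highest Slco1a4 value of the series was in tumor dHEP-550. Slco1a4 was called lower on chow only (-2.87 ± 0.93, adjusted p = 0.023 in FF, -2.65 ± 0.93, adjusted p = 0.036 in dHEP by limma). Those calls were fragile: they held in 2 of 6 fits that left out 1 library in FF chow (adjusted p 0.025 to 0.075) and in 1 of 6 in dHEP chow (0.0043 to 0.21), and without the 5 libraries the adjusted p was 0.076 and 0.080 (0.066 and 0.038 with non-tumor dHEP-155 kept). On alcohol the values were -1.12 ± 0.81, adjusted p = 0.34 in FF and 0.29 ± 0.81, adjusted p = 0.84 in dHEP, the latter changing sign to -0.60 without tumor dHEP-550. The neighbouring paralogs Slco1a5 and Slco1a6 did not exceed 0.265 CPM in any library; how reads shared among these similar genes were divided is not given beyond the use of RSEM.

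Abcb11, the bile salt export pump, fell in 3 of the 4 settings. On alcohol, non-tumor liver held 739, 588, 576 and 522 CPM in FF and 720.0, 585, 595.41 and 598 CPM in dHEP mice, and tumors 331, 255, 210.1 and 239 CPM in FF and 319, 334, 553 and 349 CPM in dHEP. The tissues were apart in both genotypes, with tumor dHEP-549 again closest to non-tumor liver. On chow, non-tumor liver held 933, 1068 and 828 CPM in FF and 831, 915 and 983 CPM in dHEP mice, and tumors 247, 211 and 383 CPM in FF and 132, 379 and 850.2 CPM in dHEP. In dHEP chow tumor dHEP-165 reached the non-tumor range and dHEP-155 was the lowest of all tumors. The log2 fold changes were -1.23 ± 0.33, adjusted p = 0.0082 in FF alcohol and -1.79 ± 0.38, adjusted p = 0.0013 in FF chow. In dHEP chow the value was -1.38 ± 0.38, adjusted p = 0.0096, and the call was lost without tumor dHEP-155 (-0.68, adjusted p = 0.11) and in the compared groups alone (adjusted p = 0.17, or 0.072 with the animal as a block). In dHEP alcohol the value was -0.72 ± 0.33, adjusted p = 0.13, not called; the compared groups alone gave an adjusted p of 0.039, and 0.068 with the animal as a block.

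Abcb4, the phosphatidylcholine floppase, held 298 to 512 CPM in the 14 non-tumor libraries (median 413) and 108 to 499 CPM in the 14 tumors (median 222). It fell in FF alcohol (-0.85 ± 0.22, adjusted p = 0.0066), FF chow (-1.04 ± 0.25, adjusted p = 0.0037) and dHEP chow (-0.99 ± 0.25, adjusted p = 0.0059) by limma. In these 3 settings all tumors lay below all non-tumor libraries of the same genotype and diet. In dHEP alcohol tumor dHEP-520 held 499 CPM, above the 4 non-tumor libraries, and the value was -0.46 ± 0.22, adjusted p = 0.15; without that tumor it was -0.68 with an adjusted p of 0.027. The dHEP chow call was lost without tumor dHEP-155 (-0.71, adjusted p = 0.062). The FF alcohol call was lost without the 5 libraries (-0.72, adjusted p = 0.10) and without the 4 alone (-0.72, adjusted p = 0.088).

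Abcc2, the conjugate export pump, lay between 462 and 1001 CPM over the whole series. Non-tumor liver held 462 to 800 CPM (median 745) and tumors 544 to 1001 CPM (median 802), and the tissues overlapped. The log2 difference of tumor against non-tumor liver was 0.13 in FF alcohol, 0.15 in FF chow, 0.12 in dHEP alcohol and 0.10 in dHEP chow, with limma adjusted p from 0.60 to 0.74. The 95% intervals ran from -0.24 to 0.50, -0.27 to 0.58, -0.25 to 0.49 and -0.33 to 0.53 in the same order, so a fall of the size of Slc10a1 or Slco1b2 lies outside them. Scaling by median of ratios turned the sign in FF chow (-0.01) and dHEP chow (-0.03); that scaling brings the median of all genes, which lay at 0.16 and 0.14 in these settings, close to 0.

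**Figure D2:**
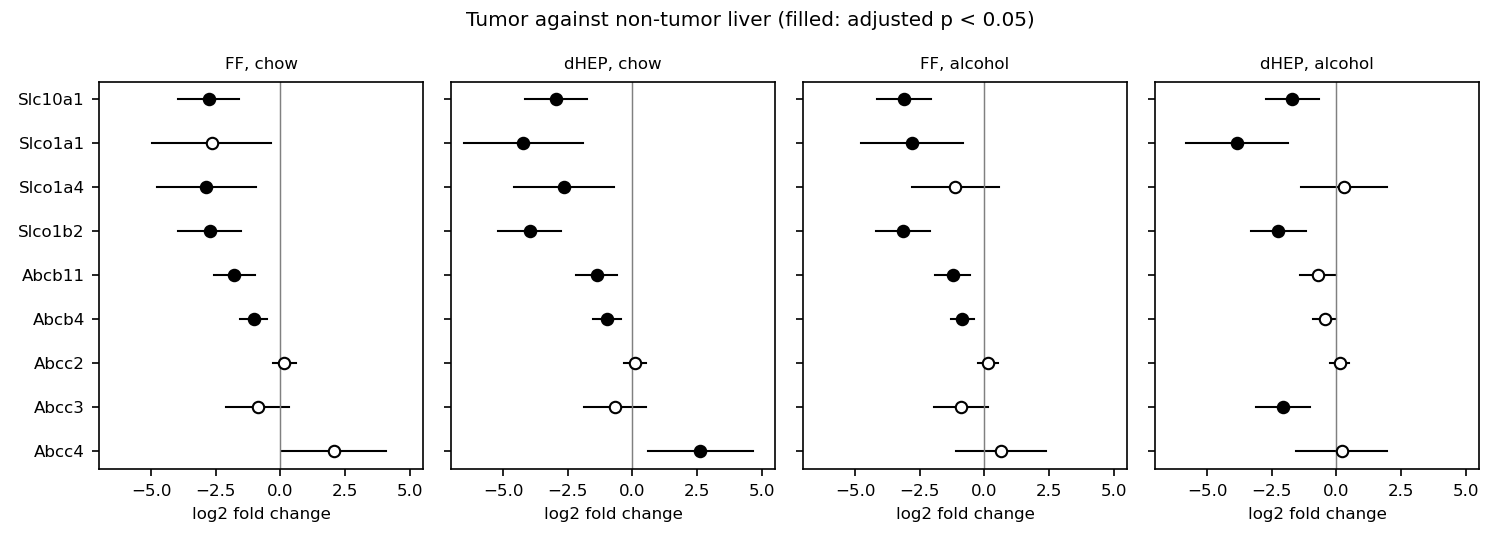
Log2 fold change of tumor against non-tumor liver for the 9 tested members in each genotype and diet (points, with 95% intervals; filled where limma's adjusted p is below 0.05). Slc10a1 and Slco1b2 lie left of 0 in all 4 panels and the interval of Abcc2 includes 0 in all 4.

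Abcc3, the basolateral pump for glucuronides, held 335 to 573 CPM in non-tumor liver, with a median of 464. Alcohol tumors held 309.5, 334, 214 and 170.1 CPM in FF and 233, 362, 52.7 and 27.9 CPM in dHEP mice, and chow tumors 254, 241 and 243 CPM in FF and 563, 157.59 and 230.3 CPM in dHEP mice. Tumors dHEP-549 and dHEP-550 were the lowest and dHEP-155 the highest. Abcc3 was called lower in dHEP alcohol (-2.08 ± 0.51, adjusted p = 0.0055 by limma), in each of the 8 fits that left out 1 library (adjusted p up to 0.023); a fit of the compared groups alone ended the call (adjusted p = 0.074, or 0.044 with the animal as a block). The values elsewhere were -0.91 ± 0.51, adjusted p = 0.2 in FF alcohol, -0.88 ± 0.59, adjusted p = 0.27 in FF chow and -0.68 ± 0.59, adjusted p = 0.41 in dHEP chow. A fit of the compared groups alone called it in FF alcohol (adjusted p = 0.019, or 0.0018 with the animal as a block) and FF chow (adjusted p = 0.0034). Every FF tumor lay below the FF non-tumor libraries of its diet.

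Abcc4, the basolateral exporter of bile acids and nucleotides, was low in most libraries and high in a few tumors. Non-tumor liver held 4.35 to 27.4 CPM with a median of 8.68. Alcohol tumors held 10.4, 82.7, 13.8 and 14.3 CPM in FF and 12.001, 28.6, 6.62 and 5.52 CPM in dHEP mice, and chow tumors 17.4, 251 and 18.4 CPM in FF and 190.1, 8.23 and 81.5 CPM in dHEP mice. In 4 tumors (FF-168, dHEP-155, FF-523 and dHEP-165) Abcc4 exceeded 80 CPM, and the other 10 lay between 5.52 and 28.6 CPM. Abcc4 was called higher in dHEP chow tumors (2.62 ± 0.98, adjusted p = 0.048 by limma), where dHEP-164 fell among the non-tumor values. The call held in 1 of 6 fits that left out 1 library and was lost without tumor dHEP-155 (1.69, adjusted p = 0.28). It was also lost without the 5 libraries (adjusted p = 0.082) and without the 4 alone (adjusted p = 0.054). In FF chow the value was 2.06 ± 0.98, adjusted p = 0.11, and on alcohol 0.64 ± 0.85, adjusted p = 0.64 in FF and 0.20 ± 0.85, adjusted p = 0.9 in dHEP.

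Slc51b, the smaller subunit of the basolateral bile acid exporter, was below 1 CPM in every library, and its partner Slc51a did not exceed 0.466 CPM. Slc51b lies at chr9:65412714-65422955 (GRCm38) and overlaps Rasl12, which did not exceed 0.834 CPM. Slc51b ranged from 0.0675 to 0.817 CPM in tumors and from 0 to 0.362 CPM in non-tumor liver, levels at which no difference between groups was tested in the main fits. The alternative fit without a filter on low values included Slc51b, and its values there are not given.

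The 11 mice with both tissues allowed a comparison within the animal. The tumor held less Slc10a1, Slco1a1, Slco1b2 and Abcb11 than the non-tumor liver of the same animal in 11 of 11 mice. The median ratio of tumor to non-tumor CPM was 0.201 for Slc10a1, 0.0790 for Slco1a1, 0.129 for Slco1b2 and 0.448 for Abcb11. Abcb4 and Abcc3 were lower in 10 of 11 (median ratios 0.610 and 0.473) and Slco1a4 in 9 of 11 (0.431, with a highest ratio of 27.4 in dHEP-550). Abcc2 and Abcc4 were higher in 8 of 11, with median ratios of 1.15 and 1.34. Slc51b, at levels of a few reads, was higher in 9 of 11 and lower in 1, with no ratio in FF-581. How many of all genes divide this way within animals was not computed, so these counts describe the members only.

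The balance between uptake and export was described for each library by the mean log2(CPM + 1) of the 4 uptake carriers minus that of the 6 exporters. Differences of this value between libraries do not depend on gene length, although its level does. Non-tumor liver had means of 2.08 ± 0.15 (SD, n = 3) in dHEP chow, 1.65 ± 0.71 (n = 3) in FF chow, 1.40 ± 0.26 (n = 4) in dHEP alcohol and 0.83 ± 0.47 (n = 4) in FF alcohol. Tumors had -1.36 ± 0.84 (n = 3), -0.89 ± 0.51 (n = 3), -0.03 ± 0.60 (n = 4) and -1.41 ± 1.37 (n = 4) in the same order. Within each genotype and diet the lowest non-tumor library lay above the highest tumor. The alcohol tumors of dHEP mice were the nearest to non-tumor liver, with a highest value of 0.50, and tumor FF-581 was the farthest at -3.36. No test was made on this mean over members.

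**Figure D3:**
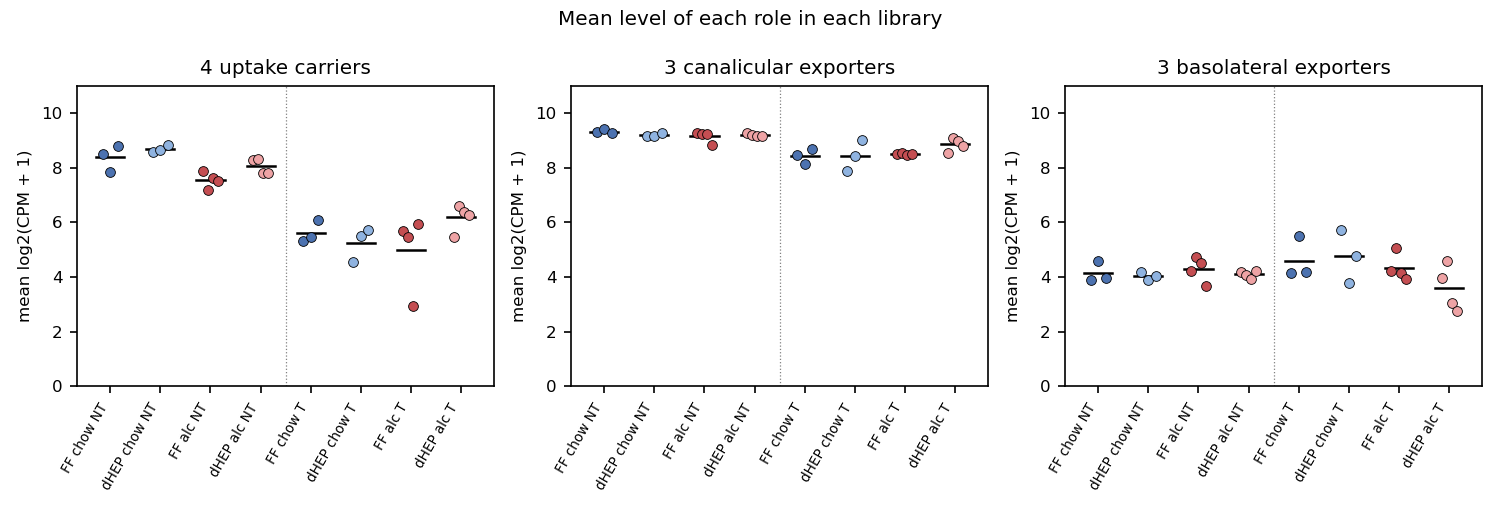
Mean log2(CPM + 1) of the uptake carriers, the canalicular exporters and the basolateral exporters in each library (points; bars are group means). The uptake carriers are lower in every tumor than in every non-tumor library, and the basolateral exporters overlap between tissues.

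Abcc4 and Slco1a1 were set beside 2 gene lists that vary with known programs. NRF2 is the transcription factor of the oxidative stress response, and Abcc4 is among the genes it is known to induce. The summed CPM of 8 NRF2 target genes, Abcc4 not among them, was highest in tumors dHEP-155 (1945), FF-168 (1905) and FF-523 (1226), the 3 tumors with the highest Abcc4; dHEP-165, next in Abcc4, had a sum of 837 CPM, below those of dHEP-520 (968) and FF-167 (928). The median of the sum was 767 CPM in tumors and 743 CPM in non-tumor liver, and only Srxn1 among the 8 was called higher, in FF chow (2.44 ± 0.52, adjusted p = 0.0012) and dHEP chow (2.10 ± 0.52, adjusted p = 0.0041) by limma. Gclm was called lower in FF alcohol, FF chow and dHEP alcohol tumors, Gsta2 in FF alcohol, FF chow and dHEP chow tumors, and Hmox1 in FF alcohol tumors (-0.91). Tumor dHEP-155 also had the highest sum of 7 cholangiocyte markers (3168 CPM, of which Spp1 gave 3142) and was the highest tumor for Spp1, Sox9 (16.3 CPM), Epcam (4.05), Krt19 (2.26), Krt7 (1.66) and Cftr (1.49). The part of these programs or of bile duct cells in Abcc4 levels was not tested.

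Male-biased liver genes follow the pulsatile growth hormone pattern of males. The sum of 12 such genes was 714 to 16180 CPM in tumors (median 3921) and 1053 to 17762 CPM in non-tumor liver (median 8489). Of the 12, 7 were called lower and 0 higher in FF alcohol tumors, 7 and 0 in FF chow, 8 and 0 in dHEP alcohol, and 9 and 0 in dHEP chow. The shares of all genes called in these settings are given with the tumor comparisons above. Cyp4a12b, a male-specific fatty acid hydroxylase, fell by 3.25 to 4.51 on the log2 scale over the 4 settings. Among 11 tested female-biased genes Cyp2a4 was called higher in all 4 settings (log2 fold change 3.59 to 5.68) and Cyp4a14 lower in all 4. In non-tumor library FF-158, low in Slco1a1, Slco1a4 was the highest of all non-tumor libraries (122 CPM). The sex of the mice is not labelled, and its part in these values was not tested.

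**Figure D4:**
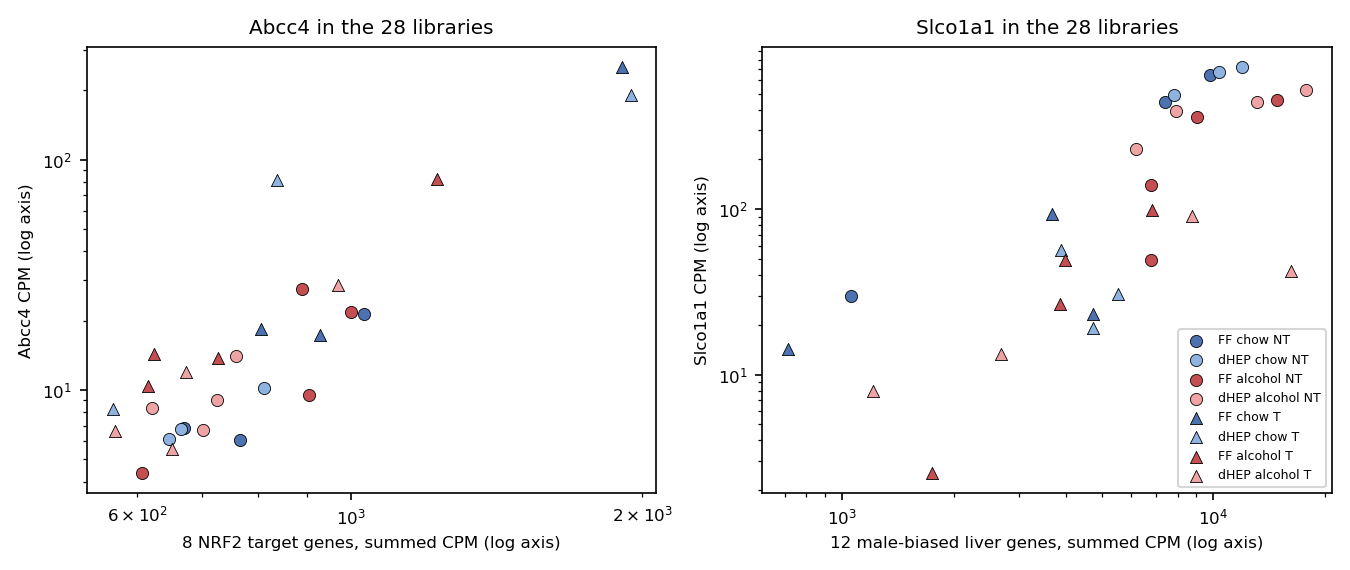
Left, Abcc4 CPM against the summed CPM of 8 NRF2 target genes; right, Slco1a1 CPM against the summed CPM of 12 male-biased genes, for the 28 libraries on log axes (circles, non-tumor; triangles, tumors). The 3 tumors at the far right of the left panel hold 190, 251 and 82.7 CPM of Abcc4, and the non-tumor library FF-158 lies among the tumors in the right panel.

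Diet was compared within each genotype and tissue. In non-tumor liver of FF mice 0 of 9 members were called between alcohol and chow, where 73 of 12651 genes (0.577%) were, 0.324% lower and 0.253% higher; 1767 genes had an unadjusted p below 0.05. Slc10a1 and Abcb11 were lower on alcohol just short of the threshold. Slc10a1 held 342 ± 23.8 CPM (SD, n = 4) on alcohol against 499 ± 65.3 (n = 3) on chow, a log2 difference of -0.54 ± 0.11, adjusted p = 0.0505 by limma. Abcb11 held 606 ± 93.2 against 943 ± 120.0 CPM, a difference of -0.64 ± 0.13, adjusted p = 0.0505. For both genes the alcohol and chow libraries did not overlap. Whether they passed varied with the fit. Both passed with a pseudocount of 0.5 (adjusted p = 0.0494 and 0.0498), with a filter at a mean of 5 CPM (0.042 for both) and with sample quality weights (0.033 and 0.031), and Abcb11 alone passed with median-of-ratios scaling (0.037). Neither passed with a pseudocount of 5 (0.05003 for both), without a filter (0.072 and 0.083), in the compared groups alone (0.26 for both) or without the 5 libraries, where the differences were -0.44 and -0.50 (0.36 and 0.37). Slco1a4 differed most in size, 15.016 ± 7.59 against 86.3 ± 31.2 CPM, -2.57 ± 0.66, adjusted p = 0.092, also without overlap; without the 5 libraries it was -2.91 with an adjusted p of 0.33.

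In non-tumor liver of dHEP mice 1 of 9 members, Abcb4, was called between diets, where 0.656% of genes were called, 0.19% higher and 0.466% lower. With alcohol, Abcb4 held 416, 457, 428 and 435 CPM; with chow, it held 329.8, 298 and 326 CPM. All alcohol libraries were above all chow libraries, and the log2 difference was 0.45 ± 0.09, adjusted p = 0.0498 by limma. The call was lost in each of the 7 fits that left out 1 library, with adjusted p of 0.089 to 0.18 and differences of 0.40 to 0.47, and without the 5 libraries (0.088); without the 4 alone it held (0.032). The FF libraries on alcohol held 429.6, 488, 512 and 410.2 CPM, and those on chow 361, 375 and 379 CPM (0.30 ± 0.09, adjusted p = 0.17). Abcb11 was -0.54 ± 0.13 in dHEP mice (adjusted p = 0.087), with 585 to 720.0 CPM on alcohol and 831 to 983 CPM on chow. It was called with sample quality weights (adjusted p = 0.0081) and in a fit of the compared groups only (0.046). It was not called in the other fits run, with adjusted p of 0.075 to 0.27, among them the fit without the 5 libraries (0.18). Slco1a4 was -1.83 ± 0.66, adjusted p = 0.24 and Slc10a1 -0.12 ± 0.11, adjusted p = 0.71, neither called.

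In tumors 0 of 9 members were called between diets in either genotype. Of all 13205 genes 0 were called in FF tumors (0%) and 1 in dHEP tumors (0.00757%), with 718 and 1441 at an unadjusted p below 0.05. In dHEP mice all alcohol tumors lay above all chow tumors for Slco1b2 (401 ± 228 against 101 ± 24.1 CPM; 1.83 ± 0.73, adjusted p = 0.39 by limma) and Abcb4 (329.5 ± 119 against 166 ± 51.4 CPM; 0.97 ± 0.31, adjusted p = 0.3).

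**Figure D5:**
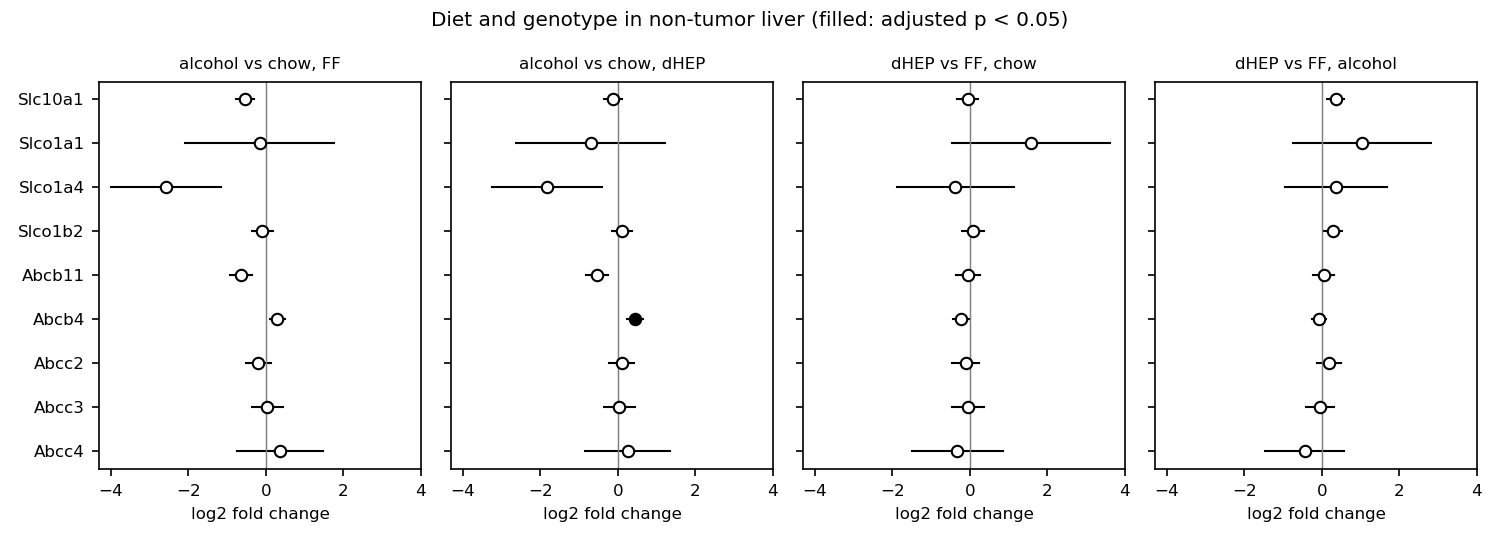
Log2 fold change in non-tumor liver of alcohol against chow in each genotype, and of dHEP against FF on each diet, for the 9 tested members (points, with 95% intervals; filled where limma's adjusted p is below 0.05). Abcb11 and Slco1a4 lie left of 0 in both diet panels, Abcb4 right of 0, and only Abcb4 in dHEP mice is filled.

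Genotype was compared within each diet and tissue, and shares its libraries with the diet comparisons. In all 4 settings 0 of 9 members were called, and 0 of all genes were (0%). Il17ra itself was among the genes not called. Its mean CPM in dHEP non-tumor liver was 46.6% of the FF mean on alcohol and 49.6% on chow. The adjusted p of Il17ra by limma was 0.29 and 0.72 there, and 0.73 and 0.9996 in alcohol and chow tumors. The lack of calls therefore does not show that the members were alike in both genotypes. The genes with an unadjusted p below 0.05 numbered 1077 (alcohol) and 588 (chow) of 12651 in non-tumor liver, and 833 (alcohol) and 378 (chow) of 13205 in tumors. On simulated data the genotype comparison of alcohol tumors recovered 34% of genes changed by a log2 of 1 and 80.8% of those changed by a log2 of 2. There a set of genes was changed at once, which eases the adjusted threshold, and each gene had the same spread in all groups. The shares may therefore overstate what the real comparison could find. The clearest separation was in Slc10a1 on alcohol. In non-tumor liver it held 420.0, 429, 431 and 473 CPM in dHEP mice and 361, 309.8, 359 and 338 CPM in FF mice, so all dHEP libraries were above all FF libraries. The difference was 0.36 ± 0.10, adjusted p = 0.39 by limma, with an unadjusted p of 0.0041; without the 5 libraries the difference was 0.33 (adjusted p = 0.60). In alcohol tumors the dHEP libraries were again above the FF libraries, narrowly (1.76 ± 0.66, adjusted p = 0.75). On chow the Slc10a1 difference in non-tumor liver was -0.06 ± 0.12, adjusted p = 0.99. Slco1b2 was 0.28 ± 0.11, adjusted p = 0.53 in non-tumor liver on alcohol.

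On chow, Slco1a1 in non-tumor liver differed between genotypes by 1.58 ± 0.95, adjusted p = 0.99; without FF-158 the difference was 0.21. Abcb4 held 329.8, 298 and 326 CPM in dHEP and 361, 375 and 379 CPM in FF non-tumor liver on chow, with no overlap (-0.23 ± 0.10, adjusted p = 0.99 by limma). Abcc2 did not overlap there either and was lower in dHEP mice (-0.11 ± 0.16, adjusted p = 0.99 by limma). How many of all genes separate in groups this small was not computed. Intervals were narrow for the abundant exporters and wide for Slco1a1, Slco1a4 and Abcc4. For Abcc2, the 95% interval of the genotype difference in non-tumor liver was -0.11 to 0.48 on alcohol and -0.45 to 0.24 on chow, and for Slco1a4 -0.95 to 1.68 and -1.89 to 1.14.

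Whether one effect differed with another factor was tested by 6 interactions for each of the 9 members, 54 tests in all. None was called, the smallest adjusted p being 0.72, and 0% of all genes were called by limma in any of the 6, with 266 to 870 genes at an unadjusted p below 0.05. At an unadjusted p below 0.05 there were 4: Slc10a1 for genotype by diet in non-tumor liver (0.42), Slco1b2 for genotype by diet in tumors (2.32), and Slco1a4 (2.95) and Slco1b2 (1.72) for tissue by diet in dHEP mice. The difference between the tumor decreases of Slc10a1 in dHEP and FF mice on alcohol was among those not called (1.40, with a 95% interval of -0.06 to 2.87).

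The other genes of the pathway were read from 3 lists, whose counts stand beside the shares of all genes given above for the tumor comparisons. Of 23 tested transporters outside the members, 9 were lower and 2 higher in FF alcohol tumors, 6 and 3 in FF chow, 7 and 2 in dHEP alcohol and 8 and 4 in dHEP chow. The counts of higher transporters were near or below the shares of all genes called higher (13.9%, 21.2%, 12.9% and 17.2% in that order). Slco2b1, an Oatp, fell in all 4 settings (-2.58, -2.49, -1.84 and -2.98), as did Slc22a7, an organic anion carrier, Slc22a30, Slc47a1 and Abcc6. Slc22a7 had log2 fold changes of -2.55, -3.20, -2.70 and -2.16. Among exporters, Abcc5, a basolateral pump, rose in FF alcohol (1.64), FF chow (1.88) and dHEP chow (2.54), and Abcb1a in FF alcohol and dHEP chow.

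Of 15 enzymes and carriers of bile acid synthesis and conjugation, 12 were lower and 1 higher in FF alcohol tumors, 13 and 1 in FF chow, 8 and 1 in dHEP alcohol and 12 and 1 in dHEP chow. The one that rose was Cyp39a1, an oxysterol hydroxylase (2.09, 1.85, 1.79 and 1.69). Cyp8b1, the enzyme that makes cholic acid precursors, fell in all 4 (-3.80, -3.28, -2.43 and -2.83). Cyp7a1, the rate-limiting enzyme of the classical route, fell in 3 settings and was -1.996 ± 0.83, adjusted p = 0.09 in dHEP alcohol. Baat and Slc27a5, which conjugate bile acids, fell in all 4.

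Of 18 tested regulators, 6, 4, 4 and 6 were lower in the settings FF alcohol, FF chow, dHEP alcohol and dHEP chow, and 0, 1, 1 and 0 were higher. Nr1i3 (CAR), a xenobiotic receptor, fell in all 4 (-2.94, -2.51, -2.56 and -3.96). Nr1h4 (FXR), the bile acid receptor that induces Abcb11, also fell in all 4 (-1.01, -1.68, -0.80 and -1.19). The one that rose was Nfe2l2, which encodes NRF2 (0.87 in FF chow and 0.73 in dHEP alcohol). The counts of higher regulators were below the shares of all genes called higher. Hnf4a, a transcription factor of hepatocyte identity, was called in none. Between diets in non-tumor liver, 3 genes of these lists were called: the prostaglandin carrier Slco2a1 (-1.31 ± 0.18, adjusted p = 0.0098) and the cholesterol exporter Abca1 (0.64 ± 0.10, adjusted p = 0.024) in FF mice, and Nr1i3 (1.40 ± 0.27, adjusted p = 0.038) in dHEP mice. In FF mice both calls were lost without the 5 libraries (adjusted p = 0.16 for Slco2a1 and 0.12 for Abca1) and in the compared groups alone (0.14 and 0.18). On leaving out 1 library Slco2a1 was called in 7 of 7 fits and Abca1 in 4 of 7 (lost without alcohol library FF-523 or chow library FF-157 or FF-159, adjusted p 0.071 to 0.11). Nr1i3 was called in 1 of 7 such fits and lost without the 5 libraries (0.14).

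Markers of other cell types were compared between tumor and non-tumor liver in the same way. Of all tested genes, 13.9% were higher and 10.6% lower in FF alcohol and 21.2% and 9.55% in FF chow. In dHEP alcohol these shares were 12.9% and 7.54%, and in dHEP chow 17.2% and 10.7%. Among 7 Kupffer cell markers 4 were lower in FF alcohol tumors, 0 in FF chow, 3 in dHEP alcohol and 5 in dHEP chow, and the summed level was 56.6 to 416 CPM in tumors and 204 to 596 CPM in non-tumor liver. Among 6 cycling markers 5 rose in FF alcohol tumors and 6 in the tumors of each other setting; the sum was 48.8 to 432 CPM in tumors and 8.24 to 60.7 CPM in non-tumor liver. Among 7 stellate cell and fibroblast markers 2, 3, 2 and 3 were higher in FF alcohol, FF chow, dHEP alcohol and dHEP chow, Acta2 and Col3a1 in all 4, and Dcn was lower in dHEP chow; the sum was 227 to 1993 CPM in tumors and 279 to 715 CPM in non-tumor liver. Among 7 markers of monocytes and recruited macrophages 0, 5, 1 and 2 were higher, with a sum of 14.04 to 251 CPM in tumors and 5.14 to 48.2 CPM in non-tumor liver. Among 6 tested lymphocyte markers 3 were higher, in FF chow only. Among 7 endothelial markers 1, 2, 1 and 0 were higher and Clec4g was lower in dHEP chow, and among 5 tested cholangiocyte markers Spp1 was higher in dHEP chow. The endothelial and cholangiocyte counts were near or below the shares of all genes. The part of these cell types in the transporter differences was not tested.

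The genes whose levels ran most like each member over the 28 libraries were ranked by Pearson's r of log2(CPM + 1). These values are descriptions, since tumor and non-tumor libraries form separate clusters that raise any such r. Nearest to Slco1b2 were Cyp2e1 (r = 0.98), Cyp27a1 (0.98) and Slco2b1 (0.95); nearest to Slc10a1 were Igf1, Aox3 and Cyp4f14 (0.95 each). Slco1a1 ran with Hsd3b5 (0.96), Slc22a28 (0.95) and Cyp4a12b (0.95), and Slco1a4 with Hamp2 (0.88), Cth (0.86) and Neb (0.86). Abcb11 ran with Masp1 (0.95), Rdh7 (0.93) and Sdr42e1 (0.93), and Abcb4 with Acad11 (0.92), Aldh3a2 (0.91) and Mgll (0.90). Abcc4 ran with Cbr3 (0.89), Slc7a11 (0.88) and Nqo1 (0.86). The lowest values were for Abcc2 (Manea 0.78, Bclaf1 0.76 and Zfp467 0.75) and Abcc3 (Eif4e3 0.84, Tmem184a 0.82 and Prelp 0.82).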

How the data were processed

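Gene-level RNA was measured in 28 mouse liver libraries. The authors deposited CPM, which sum to 1000000 in each library; per the submitters' processing notes STAR 2.5.1a and RSEM 1.3.0 were used with GRCm38, and other steps are not given in the sources used here. Which RNA fraction was sequenced is unclear, since the labels give polyA RNA but a kit for stranded total RNA. Reads per library, 9.57 M to 17.8 M (M, 1000000 reads), were estimated from the steps between low values; 84.9% to 86.9% of low values were whole reads within 0.1 read, too few for a count model. Symbols were matched for 21653 of 22187 IDs. Groups came from the labels. limma 3.58.1 (R 4.3.3; trend, moderated variances) was run on log2(CPM + 1). Genes were kept where at least 3 fitted libraries reached 1 CPM, and p-values had Benjamini-Hochberg adjustment over all tested genes. Fits for genotype and diet used the 14 libraries of a tissue, and those for tumor against non-tumor liver all 28. Each fit estimated a spread per gene shared by all its groups, so the standard errors and p-values do not measure the spread of the groups compared. For Slco1b2 in FF alcohol the SD of log2(CPM + 1) was 0.079 in non-tumor liver and 1.74 in tumors. The fit of all 28 libraries also ignored that tissues came from the same animals. For several low genes the log2(CPM + 1) scale understates the change. On simulated data, genes changed by a log2 of 1 were recovered in 53.5% (FF alcohol, tumor against non-tumor liver), 52.5% (dHEP chow, likewise), 68.4% (diet in FF non-tumor liver), 73.5% (genotype on alcohol in non-tumor liver) and 34% (genotype on alcohol in tumors) of cases, and those changed by a log2 of 2 in 93.0%, 90%, 95%, 98.0% and 80.8%. The simulated noise was normal, independent between genes and equal in spread over the groups, and a set of genes was changed at once. Where few or no genes are called in the real data, these shares may overstate recovery. Members, lists and the libraries set apart were chosen with earlier results of these data known. Some items are not reported here. Named genes are all members, called list members (at most 6 per list, comparison and direction) and the 3 genes most like each member; list genes named beyond these (Cyp7a1, Cyp8b1, Hnf4a, Ttr, Krt7, Krt19, Spp1, Slc10a2, Slc51a, Slco1a5, Slco1a6, Rasl12) were chosen after their values were seen. Alternatives were median-of-ratios scaling, pseudocounts of 0.5 and 5, a mean of 5 CPM as the filter or none, sample quality weights, the compared groups alone, the animal number as a block, and leaving out each library or 5 libraries together; leaving out 4 of these 5 was added after the results had been seen. The fit with the block held the compared groups alone. Deviations of same-numbered tumor and non-tumor libraries from the means of their groups had Pearson's r of 0.16 to 0.36 in FF alcohol, -0.11 to 0.25 in dHEP alcohol and 0.073 to 0.19 in dHEP chow; the pairing comes from the animal number in the sample names.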

Additional observations from a re-analysis of the deposited data

Results flagged for a closer look

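In groups of 4 libraries, 7 of the 40 member groups had a library far from the other 3, judged by its gap to the nearest library relative to the group's range. The cutoff lets through about 1 in 20 groups of normal values. CPM need not be normal and the members share libraries, so whether 7 is an excess was not tested. Slco1a4 was 141.9 CPM in dHEP alcohol tumor dHEP-550, against 5.81 to 17.2 CPM in the other 3. Abcb11 was 552.6 CPM in dHEP alcohol tumor dHEP-549 (others 319 to 349), the tumor with non-tumor levels of tumor markers. Abcb11 was 720.0 CPM in dHEP alcohol non-tumor library dHEP-518 (others 585 to 598). Abcc2 was 462.2 CPM in FF alcohol non-tumor library FF-595 (others 746 to 766). Abcc4 was 82.68 CPM in FF alcohol tumor FF-523 (others 10.4 to 14.3), which also had the third-highest NRF2 target sum of the tumors. Slc51b was 0.2376 CPM in dHEP alcohol non-tumor library dHEP-518 (others 0.0727 to 0.0817) and was listed at 0 in FF alcohol non-tumor library FF-581 (others 0.192 to 0.228), levels of a few reads. Groups of 3 were not assessed in this way.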

How the results depend on the processing

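Depth limits Slc51b, which did not reach 1 CPM in any library. Counts of members called between tumor and non-tumor liver stayed within 1.5 times under the alternatives, except in dHEP chow (7), where the fit of the compared groups alone called 4. Leaving out 1 library gave 4 to 5 (FF alcohol), 4 to 5 (FF chow), 3 to 5 (dHEP alcohol) and 3 to 6 (dHEP chow, 3 without tumor dHEP-155). The animal number was then used as a replicate block in the compared groups alone. Over all genes this called 4476 of 12708 (FF alcohol), 1601 of 12534 (dHEP alcohol) and 2149 of 12474 (dHEP chow). Without the block 3463, 1764 and 1925 were called. Members called were 6 (FF alcohol), 4 (dHEP alcohol) and 6 (dHEP chow), against 5, 4 and 4 in the same groups without the block. Against that fit the block gained Slco1a1 in FF alcohol (adjusted p 0.061 to 0.011), Abcc3 in dHEP alcohol (0.074 to 0.044) and Slco1a4 (0.076 to 0.019) and Abcc4 (0.12 to 0.031) in dHEP chow, and lost Abcb11 in dHEP alcohol (0.039 to 0.068); it changed no other call. No paired analysis was possible for FF chow because its tumor and non-tumor animal numbers differ. For diet in FF non-tumor liver (0 called), 2 were called with a pseudocount of 0.5, 2 with a filter at a mean of 5 CPM, 1 with median-of-ratios scaling and 2 with sample quality weights, and 0 to 2 on leaving out 1 library (2 without FF-503, 1 without FF-595 on alcohol). For diet in dHEP non-tumor liver (1 called), 0 were called with a pseudocount of 0.5 or 5, without a filter and without the 5 libraries set apart (1 without the 4 that keep non-tumor dHEP-155), 2 with sample quality weights and 2 in the compared groups alone, and 0 to 0 on leaving out 1 library. Over all genes, diet calls in FF non-tumor liver (73) ranged from 0 without the 5 libraries, 3 without the 4 and 1 in the compared groups alone to 31 without a filter, 153 with median-of-ratios scaling and 402 with weights, and in dHEP non-tumor liver (83) from 32 without the 5 libraries (129 without the 4) to 197 in the compared groups alone and 568 with weights. Sample quality weights gave 26 diet calls in FF tumors, 144 calls for tissue by diet in FF mice and 1 genotype call on chow in non-tumor liver, where 0 were called otherwise. The 1 diet call in dHEP tumors was lost without a filter, with weights, without the 5 libraries and in the compared groups alone (0 in each). Tumor calls in dHEP alcohol (2754) were 1764 in the compared groups alone and 1601 with the block, and in dHEP chow (3769) 1925 and 2149. Signs turned for Abcc2 with median-of-ratios scaling in FF chow (-0.012) and dHEP chow (-0.034), for Slco1a4 in dHEP alcohol with weights (-0.36), and on leaving out 1 library for Abcc2 in FF alcohol (range -0.044 to 0.28) and dHEP chow (-0.050 to 0.26), Abcc4 in FF alcohol (-0.013 to 0.99) and dHEP alcohol (-0.24 to 0.49) and Slco1a4 in dHEP alcohol (-0.60, -0.23 and -0.027 in 3 fits; range -0.60 to 0.88); none of these was called. The uptake minus exporter difference moved with a pseudocount of 5 to 1.05 in dHEP alcohol and 1.65 in dHEP chow non-tumor liver, and without Slco1a1 to 1.88 in the latter. The cause of these changes was not tested. Genotype and interaction counts of members stayed at 0 under the alternatives run.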

Other observations

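Slc10a2, the sodium-dependent bile acid carrier known from ileum and bile duct, was present at 1.91 to 38.4 CPM in the 28 liver libraries and was called in none of the 4 tumor comparisons (limma log2 differences from -0.10 to 0.95). In the same libraries bile duct markers reached 2.26 CPM (Krt19), 1.66 (Krt7), 4.05 (Epcam), 1.49 (Cftr), 16.3 (Sox9) and 3142 (Spp1); the part of bile duct cells in Slc10a2 was not tested. It was singled out after its values had been seen.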
